A study of Mus musculus with 2 samples.

Results

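Serpins and the secretory leukocyte protease inhibitor Slpi were followed in dissociated knee synovium of wild-type mice, cell class by cell class. The features analysed were 61 of the 32285 in the deposited matrices, each with the symbol of a clade A to I serpin or Slpi and with Serping1 left out. The members were the 28 of these 61 that had at least 10 UMIs (unique molecular identifiers, each marking 1 captured transcript) over both libraries. Of the other 33 features, 21 had no UMI and 12 had 1 to 9. Clade A gave 7 members of 24 features, clade B 12 of 27, clade E 2 of 2, clade F 2 of 2, clade I 1 of 2, and clades C, D and H 1 of 1 each, with Slpi as the last member. Together 11 members had at least 1000 UMIs and 12 had fewer than 100.

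A serpin inhibits a protease by offering a flexible reactive loop as bait, which traps the cleaved enzyme in a covalent complex. Clade A, E and F serpins are mostly secreted and act on neutrophil proteases, plasminogen activators and plasmin, clade B serpins act inside cells, and Serpinh1 is a collagen chaperone of the endoplasmic reticulum that inhibits no protease. Slpi is not a serpin but a small secreted protein with whey acidic protein domains that blocks neutrophil elastase and cathepsin G. In synovium the lining fibroblasts make lubricin, encoded by Prg4, while the sublining holds other fibroblasts, vessels and resident macrophages.

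The MMS library came from the synovium of MMS model mice labelled D14, and the control library from control mice, both wild type, and each pooled 20 knees. The labels used here do not spell out MMS, and do not give the age, sex or number of animals. The tissue was digested with Liberase TL and DNase and sequenced on the 10x Genomics 3′ v3.1 platform. The labels name goblet cells as the cell type, but 0 of 3765 kept MMS cells and 0 of 6891 kept control cells held 2 or more goblet cell markers, which allows shares of up to 0.0797% and 0.0435%. The MMS library held 85597195 UMIs and the control library 84900876. The kept cells had a median of 17444 UMIs in the MMS library and 10990 in the control library. With 1 library per group, no difference between mice could be tested. All ratios below compare these 2 libraries, and their 95% intervals cover counting error only.

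Cell classes were clustered without the members, so no member helped to define a class. Fibroblast-like cells numbered 1397 in the MMS library and 3085 in the control library, macrophage or monocyte-like cells 553 and 1203, endothelial-like cells 706 and 1961, mural-like cells 181 and 145, and neutrophil-like cells 309 and 20. Within the fibroblast-like class, 491 MMS cells and 238 control cells were lining-like, and 219 MMS cells and 2123 control cells were sublining-like. The remaining 687 MMS and 724 control fibroblast-like cells carried neither name. Median depth within the fibroblast-like class was 27572 UMIs in MMS cells and 13711 in control cells. Other classes differed in makeup too. Endothelial-like cluster c5 held 263 MMS and 80 control cells, and c14 held 218 and 1314. Macrophage or monocyte-like cluster c9 held 376 MMS and 156 control cells, and c8 held 54 and 440. Values of these whole classes are therefore not like for like. Because the makeup of the fibroblasts differed this much, each member was read in the whole class and again within its sub-classes and sub-clusters. A sub-cluster that is nearly all from 1 library may be a property of that library and not a cell type. Of the 219 MMS sublining-like cells, 139 lay in sub-cluster s1, which held 1 control cell. Sub-clusters s15, s11 and s17 held 425, 423 and 406 control cells but 8, 12 and 2 MMS cells. A sublining-like ratio therefore compares mostly different sub-clusters. Levels are in CPM, the member's UMIs per 1000000 UMIs of the class in that library, and are not compared between genes.

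The promoter windows of 3 members, the 250 bases before the RefSeq transcript start in GRCm38.p6, are shown because these members had different patterns across the fibroblasts. Both strands of each window were searched for 6 short motifs, and the matches of the first 5 are in capitals. The AP-1 motif was searched as TGANTCA. For STAT factors the letters were TTCNNNGAA. The C/EBP motif was searched as TTGCNNAA. For NF-kB the letters were GGGANNNNCC. The TATA box was searched as TATAAA. The E-box, CANNTG, is common and is not in capitals. Slpi lies on the minus strand of chromosome 2, Serpina3n on the plus strand and Serpina3c on the minus strand of chromosome 12.
Slpi, chr2:164356508-164356757: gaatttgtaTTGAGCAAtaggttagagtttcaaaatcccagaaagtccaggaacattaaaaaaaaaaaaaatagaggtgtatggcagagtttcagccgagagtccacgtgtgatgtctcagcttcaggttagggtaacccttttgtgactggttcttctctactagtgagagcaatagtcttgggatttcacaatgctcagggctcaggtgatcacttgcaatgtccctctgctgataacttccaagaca
Serpina3n, chr12:104406458-104406707: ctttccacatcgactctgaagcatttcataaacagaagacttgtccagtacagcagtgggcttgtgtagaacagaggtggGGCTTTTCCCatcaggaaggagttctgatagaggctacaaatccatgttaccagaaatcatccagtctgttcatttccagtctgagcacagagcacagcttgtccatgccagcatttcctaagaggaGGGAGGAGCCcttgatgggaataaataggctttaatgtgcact
Serpina3c, chr12:104153873-104154122: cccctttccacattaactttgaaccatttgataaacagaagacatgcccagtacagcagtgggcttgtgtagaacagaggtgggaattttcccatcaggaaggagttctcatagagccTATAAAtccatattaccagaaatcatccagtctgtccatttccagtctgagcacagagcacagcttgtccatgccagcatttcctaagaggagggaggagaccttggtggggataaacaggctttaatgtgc
The Slpi window held 1 match in capitals, TTGAGCAA, a C/EBP match that starts 241 bases before the transcript start, and 3 E-box matches that start 37, 45 and 146 bases before it. The Serpina3n window held 2 NF-kB matches, and the Serpina3c window a TATA box match 132 bases and an E-box match 226 bases before the start. The Serpina3c and Serpina3n windows were 90.5% identical over their aligned bases, and neither shared a marked match with the other. Of 25 members with a promoter in the RefSeq table, 6 held an NF-kB match, 5 an AP-1 match and 5 a TATA box match. A C/EBP match was in 4, a STAT match in 3 and an E-box match in 15. Where a member had more than 1 window, only the one lowest on the chromosome was counted. The uncounted windows of Serpinb2 and Serpinb6a held a STAT match, and that of Serpinb12 an E-box match. Over 27025 windows of that length, 1 per gene, 17.3% held an NF-kB match, 6.87% an AP-1 match and 12.97% a TATA box match. A C/EBP match was in 9.55% of them, a STAT match in 7.18% and an E-box match in 66.0%. The motifs can overlap, and a window can count under several. A match describes the letters of the window and is not a binding site.

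In fibroblast-like cells, 22 of the 28 members had the 10 UMIs over both libraries needed for a ratio. Of these, 5 were at least 2-fold higher in the MMS library, namely Slpi, Serpina10, Serpinb5, Serpinb6b and Serpine3, and 5 were at least 2-fold lower, namely Serpinf1, Serpina3c, Serpina3m, Serpinb7 and Serpinb6c. Over the 16039 genes measured in the class, 10.1% were that much higher and 9.73% that much lower. The members' median log2 ratio of MMS over control was -0.06, against 0.06 for all genes. Both shares of the members were above those over all genes, but 5 of the 10 had fewer than 100 UMIs in the class. The members had no common direction in fibroblasts, so the values are given member by member.

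**Figure D1:**
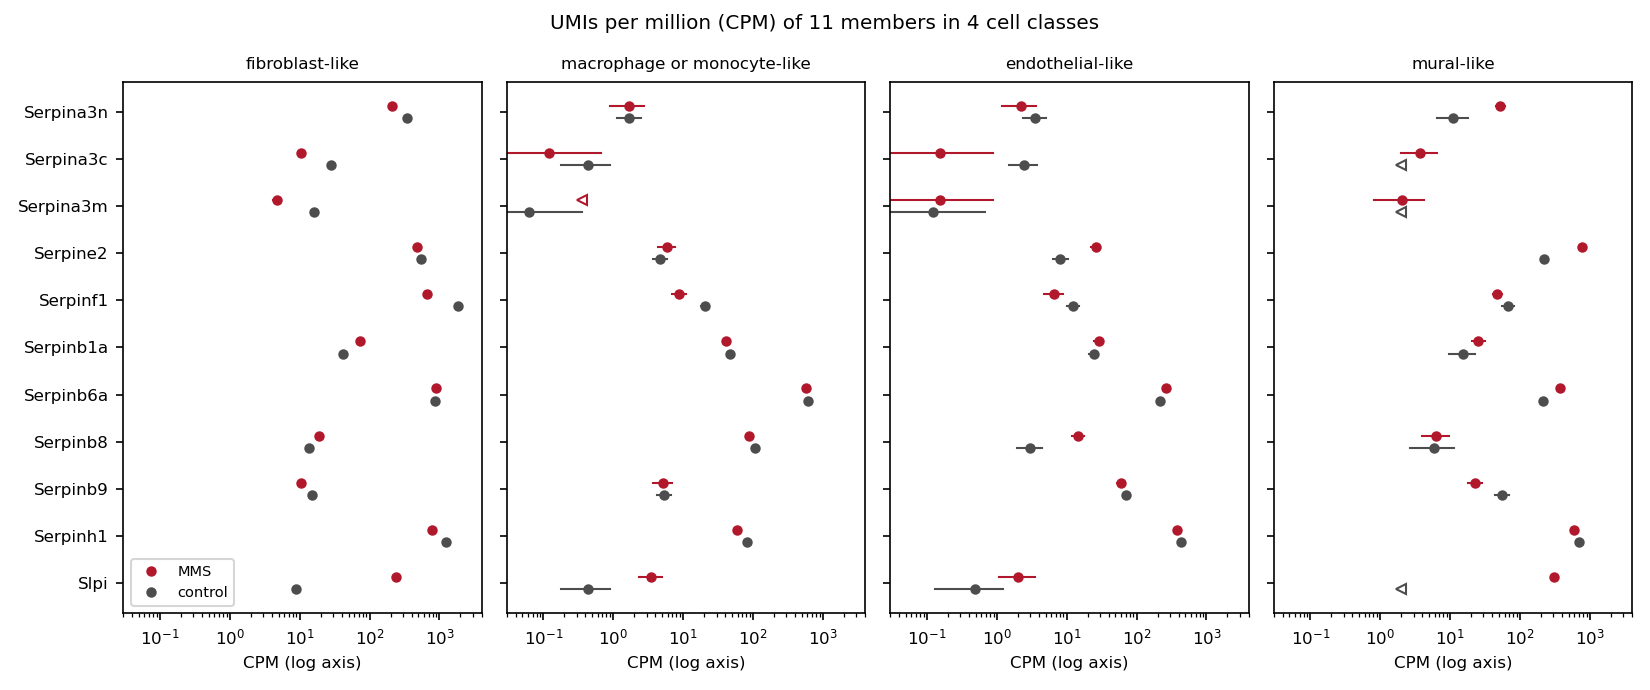
Level of 11 members in CPM on a log axis in the fibroblast-like, macrophage or monocyte-like, endothelial-like and mural-like classes, MMS above control in each row. Bars are exact Poisson intervals cut at the edge of the axis, and an open triangle marks the limit of a library with no UMI. Slpi is at 236 CPM in MMS and 8.86 CPM in control fibroblast-like cells, and Serpinh1 is lower in MMS in all 4 panels.

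Of the secreted clade A inhibitors Serpina3n had the most UMIs, with 10809 kept in MMS and 16923 in control. Serpina3n (ENSMUSG00000021091, chr12:104406729-104414329, plus strand, GENCODE M21 on GRCm38) is the mouse relative of human antichymotrypsin and is induced in the acute phase response. In sublining-like cells it was at 951 CPM in the MMS library and 447 CPM in the control library, a log2 ratio of 1.09 with an interval of 1.04 to 1.15. In lining-like cells it was at 64.7 CPM in MMS and 11.02 CPM in control, a log2 ratio of 2.55 (2.18 to 2.95). In the fibroblasts with neither name, the largest part of the MMS class with 687 cells, it was lower in MMS. Over all fibroblast-like cells it was also lower in MMS, at 209 CPM against 347 CPM in control (log2 ratio -0.73, interval -0.77 to -0.69). The makeup of the class moved with this pooled value, since sublining-like cells were 219 of 1397 MMS fibroblasts and 2123 of 3085 control fibroblasts.

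Within the fibroblast sub-clusters that held at least 10 cells of both libraries, Serpina3n was higher in MMS in 6 of 8. Its counting interval lay above 0 in 4 of the 8 and below 0 in 2. Sub-cluster s4, led by Fmo2 and Gdf10, had 822 CPM in its 46 MMS cells and 200 CPM in its 150 control cells. Sub-cluster s11, whose leading genes include Hp, Vtn and Ccl19, had 1547 CPM in 12 MMS cells and 755 CPM in 423 control cells. The size of the difference varied between whole fibroblast-like clusters, with 904 CPM in MMS and 722 CPM in control in cluster c1 and 907 and 219 CPM in c13. The main exception was s0, led by Mmp13 and Lrrc15, with 260 CPM in 444 MMS cells and 328 CPM in 22 control cells. The other exception, s6, carried endothelial markers, and s14, among those higher in MMS, carried erythroid markers. Serpina3n was thus higher in 6 of these 8 sub-clusters, 4 of them beyond counting error. It was lower in s0 with its 444 MMS cells and over the whole class. The gene was also in adipocyte-like cells, at 495 CPM in 58 MMS cells and 224 CPM in 30 control cells (log2 ratio 1.15, interval 0.82 to 1.49). In T or NK-like cells all 55 MMS UMIs lay in 1 of 27 cells, so that class gives no level.

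Serpina3c and Serpina3m, neighbours of Serpina3n on chromosome 12 that belong to the same expanded mouse family, followed the pooled pattern more strongly. Serpina3c was at 10.5 CPM in MMS fibroblast-like cells and 27.8 CPM in control ones (log2 ratio -1.41, interval -1.58 to -1.25). In sublining-like cells alone it was at 37.7 CPM in MMS and 38.2 CPM in control, a log2 ratio of -0.02 (-0.29 to 0.24). In lining-like cells its log2 ratio was above 0, from 0.55 to 0.59 in the settings run. Serpina3m was at 4.75 CPM in MMS fibroblasts and 15.8 CPM in control fibroblasts (-1.74), but at 27.3 CPM in MMS and 21.5 CPM in control sublining-like cells (0.34). The sublining-like values depended on the cluster. Within cluster c1, Serpina3c was at 24.6 CPM in MMS and 20.2 CPM in control (0.28), but Serpina3m at 20.8 CPM in MMS and 52.9 CPM in control (-1.34, interval -1.69 to -1.01). Within cluster c13, with 4 MMS and 20 control UMIs, Serpina3c had a log2 ratio of -1.14 (-3.15 to 0.44), and Serpina3m one of 0.90 (-0.23 to 2.01). Adipocyte-like cells held Serpina3c at 46.9 CPM in MMS and 68.5 CPM in control, and Serpina3m at 60.6 and 34.2 CPM. Serpina10, the inhibitor of activated factor X that works with protein Z, was nearly confined to lining-like cells, which held 61 of its 62 MMS fibroblast UMIs and 11 of its 12 control ones. Its lining-like level was 3.54 CPM in MMS and 1.95 CPM in control, with an interval of the log2 ratio that spans 0 (-0.08 to 1.93). Serpina3f, Serpina3g and Serpina3i were rare, with 12, 18 and 12 kept UMIs in MMS and 2, 7 and 0 in control.

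The GENCODE gene body of Serpina3m begins at the same base as that of Serpina3k, so reads of the pair could be split or discarded by the counting. The last 500 bases of Serpina3c, Serpina3m and Serpina3n shared no 50-base stretch with another annotated gene. Serpina3f, Serpina3g and Serpina3i shared 1.55%, 2.44% and 0.443% of theirs, and Serpinb6c 7.98%.

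**Figure D2:**
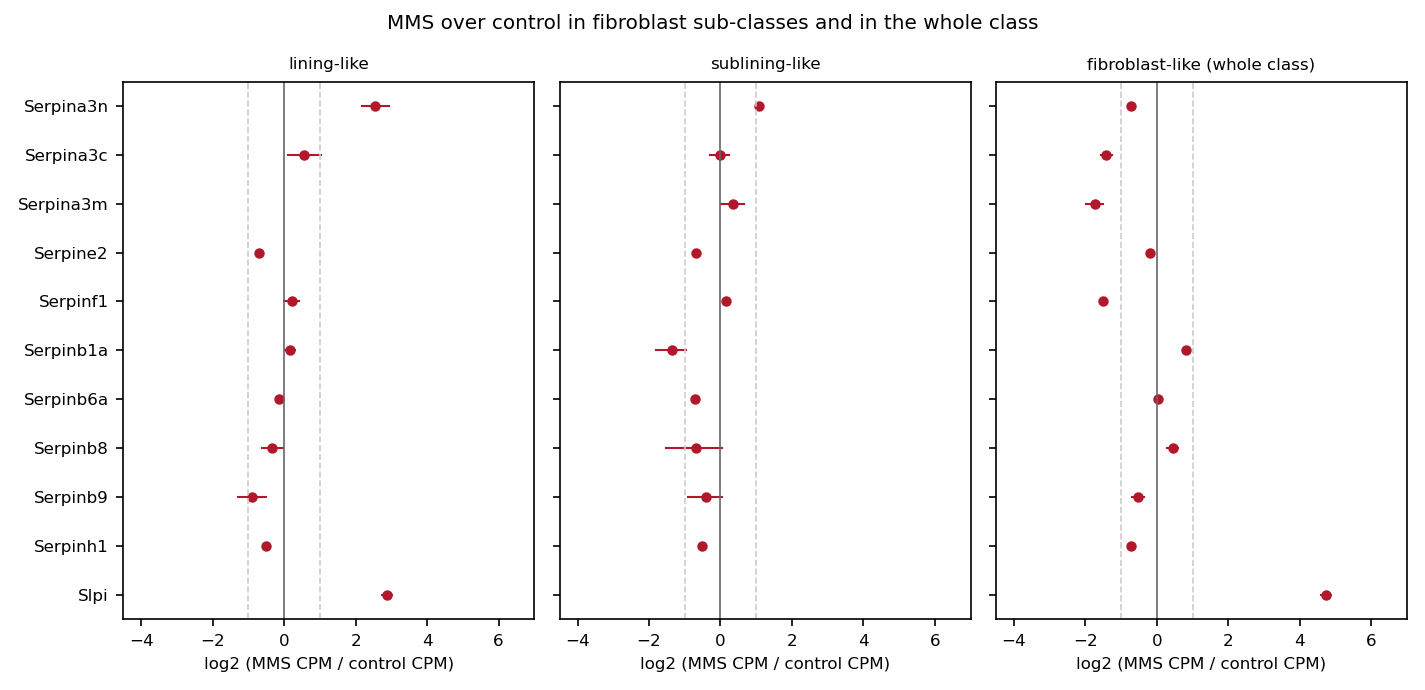
Log2 ratio of MMS over control for 11 members in lining-like cells, sublining-like cells and the whole fibroblast-like class, with 95% counting intervals as bars, a line at 0 and dashed lines at 2-fold. Serpina3n is at 2.55 in lining-like and 1.09 in sublining-like cells and at -0.73 in the whole class. Serpinf1 is past 2-fold in the whole class only, at -1.49. Fibroblasts with neither name are not drawn apart. Slpi is not drawn in sublining-like cells, where it had 5 MMS UMIs and no control UMI, nor Serpina3m in lining-like cells, since a ratio under 50 UMIs is left out.

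In clade E, Serpine2, or protease nexin, a cell surface inhibitor of thrombin and urokinase, had its largest difference in mural-like cells. There it was at 777 CPM in MMS and 221 CPM in control, a log2 ratio of 1.81 (1.65 to 1.98), and 92.8% of MMS and 71.0% of control cells held a UMI. Among the fibroblasts it was lower in MMS lining-like cells, at 202 CPM against 330 CPM in control, and in sublining-like cells, at 390 CPM in MMS against 625 CPM in control. In the remaining fibroblast-like cells it was higher, at 755 CPM in MMS and 463 CPM in control (0.70). Over the sub-clusters with 10 cells of both libraries it was lower in MMS in 6 of 8, with log2 ratios between -1.06 and 1.39. Endothelial-like cells had 25.9 CPM in MMS and 8.12 CPM in control (1.68), with a median depth of 6956 UMIs in MMS and 3435 in control. The unnamed cluster c6, whose leading genes include Col11a1, Fmod, Acan and Thbs4 and which held 194 MMS cells and no control cell, had 1138 CPM. Serpine3, whose protein is little characterised, had 16 UMIs in MMS fibroblasts and 3 in control fibroblasts.

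Serpinf1 encodes pigment epithelium-derived factor, a secreted anti-angiogenic serpin without protease inhibition. It was at 659 CPM in MMS fibroblast-like cells and 1855 CPM in control ones, a log2 ratio of -1.49 (-1.51 to -1.47). Sublining-like cells did not show this difference, with 2295 CPM in MMS and 2066 CPM in control (0.15, interval 0.12 to 0.19), and lining-like cells had low levels of 50.9 CPM in MMS and 43.9 CPM in control. The fibroblasts that were neither lining-like nor sublining-like did, at 923 CPM in MMS and 2216 CPM in control (-1.26). Within sub-clusters the gene was lower in MMS in 7 of 8, with log2 ratios from -2.32 to 0.96 and an interval below 0 in 6. Outside the fibroblasts it was lower in MMS in adipocyte-like cells, at 132 CPM against 529 CPM in control. The 201 control UMIs there lay in 9 of 30 cells. The 10 fibroblast markers summed to 8187 CPM in MMS and 15681 CPM in control adipocyte-like cells, and the part of fibroblast RNA was not tested. The macrophage level of Serpinf1 was 8.81 CPM in MMS and 20.4 CPM in control, but with a mitochondrial limit of 5% that log2 ratio turned to 2.89. The part of RNA from other cells in this low level was not tested. Serpinf2, the plasmin inhibitor antiplasmin, was sparse, and macrophage or monocyte-like cells held 60.0% of its 60 kept MMS UMIs and 66.7% of its 90 control UMIs. Its macrophage level was 4.29 CPM in MMS and 3.79 CPM in control.

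**Figure D3:**
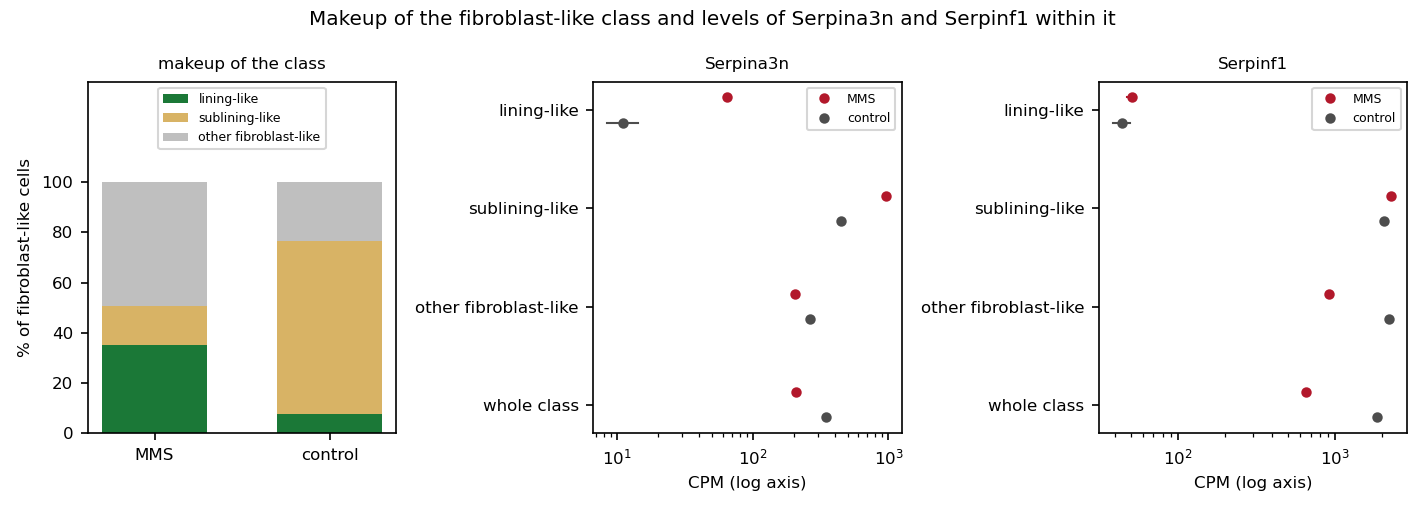
Left, the share of fibroblast-like cells that were lining-like, sublining-like or neither, MMS beside control. Middle and right, the levels of Serpina3n and Serpinf1 in CPM on a log axis within those groups and in the whole class, with exact Poisson intervals as bars. Serpinf1 is at 2295 CPM in MMS and 2066 CPM in control sublining-like cells, but at 659 and 1855 CPM in the whole class.

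Among the intracellular clade B serpins, the widely expressed Serpinb6a hardly differed over the whole fibroblast-like and macrophage or monocyte-like classes. Serpinb1a depended on the class. Serpinb6a, an inhibitor of cathepsin G and trypsin-like proteases, was at 881 CPM in MMS and 868 CPM in control fibroblast-like cells. In macrophage or monocyte-like cells it was at 578 CPM in MMS and 605 CPM in control. In mural-like cells its log2 ratio ranged from 0.12 to 0.80 in the settings run. With Prg4 under 0.5% of UMIs, where that ratio was lowest, the gene was at 209 CPM in MMS and 193 CPM in control. In sublining-like cells it was lower in MMS, at 502 CPM against 823 CPM in control (-0.71), and lining-like cells had 1137 CPM in MMS and 1268 CPM in control. It was lower in MMS in 8 of 8 sub-clusters with 10 cells of both libraries, with log2 ratios of -0.73 to -0.02, although the pooled log2 ratio was 0.02. The counting interval lay below 0 in 5 of the 8.

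Serpinb1a inhibits neutrophil elastase and related proteases within the cells that store them. In neutrophil-like cells it had 3708 UMIs in 309 MMS cells, or 700 CPM, and 1 UMI in 20 control cells, or 6.90 CPM. The log2 ratio was 6.66, with a counting interval of 4.19 to 11.97 that reflects the single control UMI. The control neutrophil-like cells were mixed, since the 11 with a Slpi UMI held 13045 CPM of the neutrophil gene S100a8 and the 9 without held 12.5 CPM. Serpinb1a was also higher in MMS fibroblast-like cells, at 73.6 CPM against 41.4 CPM in control, while lining-like cells had 102 CPM in MMS and 91.0 CPM in control. In sublining-like cells it was lower in MMS, at 14.2 CPM against 36.8 CPM in control (-1.37, but 0.63 within cluster c13), and in T or NK-like cells at 56.2 CPM in 27 MMS cells against 309 CPM in 68 control cells. Macrophage or monocyte-like cells had 41.1 CPM in MMS and 47.3 CPM in control.

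Serpinb8, an inhibitor of furin, had 38.2% of its kept MMS UMIs and 67.4% of its control UMIs in macrophage or monocyte-like cells, at 86.5 CPM in MMS and 106 CPM in control (-0.29). Fibroblast-like cells held 38.6% of its MMS UMIs and 25.4% of its control UMIs, at 18.7 CPM in MMS and 13.7 CPM in control. In endothelial-like cells it was higher in MMS, at 14.7 CPM against 3.03 CPM in control (2.28, interval 1.63 to 2.98). Within endothelial-like clusters it was at least 2-fold higher in c4 and c14 but not in c5. Serpinb9, the inhibitor of granzyme B that protects cytotoxic and vascular cells, was at 186 CPM in MMS and 111 CPM in control T or NK-like cells (0.74, interval 0.11 to 1.36). Its endothelial level was 59.2 CPM in MMS and 71.2 CPM in control, and its mural level was lower in MMS, at 22.6 CPM against 55.8 CPM in control (-1.31). In fibroblast-like cells Serpinb9 was at 10.6 CPM in MMS and 15.2 CPM in control.

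Serpinb7 was a fibroblast gene in this tissue, with 71 of its MMS UMIs and 383 of its control UMIs in that class. Its fibroblast level was 1.81 CPM in MMS and 8.36 CPM in control (-2.20, interval -2.59 to -1.84). Lining-like cells had 2.90 CPM in MMS and 9.77 CPM in control, and fibroblasts with neither name 1.08 CPM in MMS and 21.3 CPM in control. The difference thus had 1 direction in each fibroblast sub-class. Serpinb6b, a relative of Serpinb6a, had 49 UMIs in MMS fibroblasts and 5 in control fibroblasts, and its log2 ratio was -1.07 without cluster c0. Its endothelial level was 2.66 CPM in MMS and 5.45 CPM in control (-1.04, but 0.018 after thinning to 2000 UMIs per cell), and its T or NK level 117 CPM in MMS and 68.1 CPM in control. The rare members were Serpinb5 with 18 kept UMIs in MMS and 2 in control, Serpinb2 with 41 and 28, Serpinb1b with 31 and 16, Serpinb6c with 10 and 24, Serpinb9b with 8 and 17, and Serpinb12 with 5 and 4.

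Serpinh1, the collagen chaperone, was lower in MMS in the fibroblast-like, macrophage or monocyte-like, endothelial-like and mural-like classes. In fibroblast-like cells it was at 770 CPM in MMS and 1259 CPM in control, a log2 ratio of -0.71 (-0.73 to -0.69). Lining-like cells had 492 CPM in MMS and 693 CPM in control, and sublining-like cells 968 CPM in MMS and 1379 CPM in control. Outside the fibroblasts the differences were smaller, with 379 CPM in MMS and 437 CPM in control endothelial-like cells, 590 and 705 CPM in mural-like cells, and 59.1 and 82.6 CPM in macrophage or monocyte-like cells. The macrophage log2 ratio was -0.48, but 1.25 with a mitochondrial limit of 5%. The part of RNA from other cells in this macrophage level was not tested. The 15 dissociation response genes were all detected in these classes. They summed to 7490 CPM in MMS and 19573 CPM in control fibroblast-like cells, 10147 and 21086 CPM in mural-like cells, 8618 and 10066 CPM in endothelial-like cells, and 17251 and 17762 CPM in macrophage or monocyte-like cells. Their part in the result was not tested. Within the 8 sub-clusters with 10 cells of both libraries Serpinh1 was lower in MMS in 8, with log2 ratios of -1.21 to -0.25. Its interval lay below 0 in 7. An exception was the cycling unnamed cluster c18, with 778 CPM in 98 MMS cells and 520 CPM in 17 control cells. The genes that fold and process collagen beside Serpinh1 did not share this direction, and their values are given with the other lists.

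**Figure D4:**
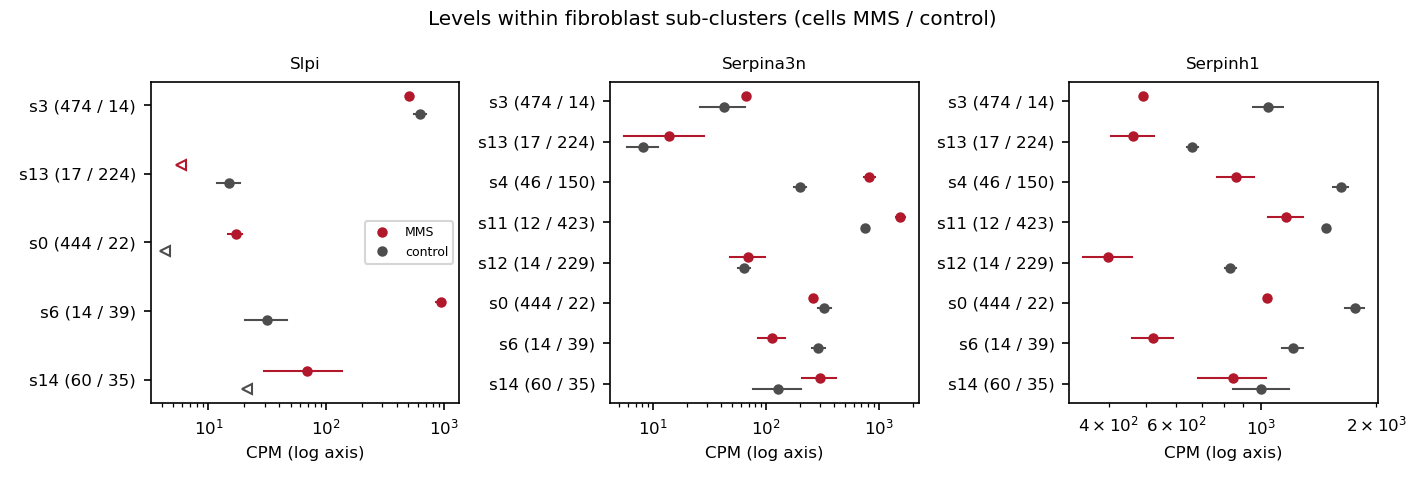
Levels of Slpi, Serpina3n and Serpinh1 in CPM on a log axis within fibroblast sub-clusters that held at least 10 cells of both libraries and a ratio for the gene, MMS above control, with exact Poisson intervals as bars and an open triangle at the limit of a library with no UMI. Serpinh1 is lower in MMS in all 8 rows and Serpina3n higher in 6 of 8. Slpi is at 502 CPM in MMS and 627 CPM in control in s3.

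The remaining serpins were of low level. Serpini1, or neuroserpin, an inhibitor of tissue plasminogen activator, was a mural gene here, since mural-like cells held 80.8% of its 182 kept MMS UMIs and 60.5% of its 86 control UMIs. Its mural level was 42.5 CPM in MMS and 34.1 CPM in control, with an interval of the log2 ratio that spans 0 (-0.15 to 0.80). Serpinc1, or antithrombin, had 127 kept UMIs in MMS and 169 in control. Its fibroblast level was 1.15 CPM in MMS and 1.46 CPM in control, and its macrophage level 3.93 CPM in MMS and 3.28 CPM in control. Serpind1, or heparin cofactor, had 13 kept UMIs in MMS and 2 in control.

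Slpi (ENSMUSG00000017002, chr2:164354070-164389095, minus strand), whose promoter window is printed above, had the largest fibroblast ratio of the members with at least 50 UMIs there. It had 9259 UMIs or 236 CPM in MMS fibroblast-like cells, and 406 UMIs or 8.86 CPM in control ones, a log2 ratio of 4.74 (4.59 to 4.88). The share of fibroblast-like cells with a UMI was 20.1% in MMS and 0.681% in control, and 9.35% and 0.262% after thinning to 2000 UMIs per cell. These UMIs lay in the lining, where Slpi was at 487 CPM in 491 MMS cells and 66.5 CPM in 238 control cells (2.87, interval 2.72 to 3.03). Sublining-like cells had very few, with 5 UMIs in 219 MMS cells and 0 in 2123 control cells. Their shares with a UMI were 2.28% in MMS and 0% in control, at median depths of 15979 and 13002 UMIs.

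The lining-like cells of the 2 libraries lay mostly in different sub-clusters. Sub-cluster s3, led by Slpi, Col22a1, F13a1 and Prg4 although it was clustered without Slpi, held 474 MMS cells and 14 control cells. In s3, Slpi was at 502 CPM in MMS and 627 CPM in control, with a UMI in 234 of 474 MMS cells and 7 of 14 control cells. Sub-cluster s13, whose leading genes include Clic5 and Aldh1a3, held 17 MMS cells and 224 control cells. In s13, Slpi had no UMI in 17 MMS cells, which allows up to 5.86 CPM, and 14.9 CPM in control, with a UMI in 11 of 224 cells. Within neither lining sub-cluster was Slpi higher in MMS, though each had few cells of 1 library. Over the 5 sub-clusters with 10 cells of both libraries and a ratio for Slpi, it was higher in MMS in 3 and lower in these 2. The 3 were s0, with 17.0 CPM in MMS and no UMI in 22 control cells, s6, with 939 CPM in 14 MMS cells and 31.5 CPM in 39 control cells, and s14, with 8 UMIs in MMS and 0 in control. In s6, which carried endothelial markers, 3 MMS cells held all 467 UMIs. Of the 6 barcodes that both libraries share, 4 were among kept cells, and none was a control cell of s3.

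Slpi was uneven among lining cells of the same library. The median MMS lining-like cell had no Slpi UMI, and the tenth of cells richest in it held 75.8% of the UMIs. MMS lining-like cells with Slpi held 135244 CPM of Prg4, and those without 107900 CPM. Control lining-like cells with Slpi held 125717 CPM of Prg4, and those without 86505 CPM. At equal depth, between 23170 and 32768 UMIs, Slpi was at 212 CPM in 142 MMS lining-like cells and 78.2 CPM in 105 control ones. Neutrophil genes were low in these cells, with S100a9 at 17.0 CPM in MMS and 0 in control lining-like cells, against 102724 CPM in MMS neutrophil-like cells and 9666 CPM in control neutrophil-like cells.

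Neutrophil-like cells were the other main holder of Slpi, at 1123 CPM in 309 MMS cells and 1083 CPM in 20 control cells (0.05, interval -0.18 to 0.29). In the MMS library 93.2% of them held a UMI, and in the control library 55.0%. The 9 control cells without one held 12.5 CPM of S100a8 and 590 CPM of the macrophage gene Csf1r. The control level thus averages unlike cells, and the similar levels do not compare like with like. Neutrophil-like cells gave 30.7% of the 19397 kept Slpi UMIs of MMS and 21.6% of the 727 of control, and fibroblast-like cells gave 47.7% and 55.8%. Unnamed cluster c7, which joins fibroblast and mast cell genes, had 632 CPM in 163 MMS cells and 73.8 CPM in 142 control cells (3.10). The cycling cluster c18 had 243 CPM in MMS and 0 UMIs in control, which allows up to 6.96 CPM. Macrophage or monocyte-like cells had 3.45 CPM in MMS and 0.442 CPM in control, and endothelial-like cells 2.03 and 0.485 CPM. A UMI was held by 1.81% of MMS and 0.333% of control macrophage or monocyte-like cells, at median depths of 14587 and 12658 UMIs, and by 1.84% of MMS and 0.153% of control endothelial-like cells, at 6956 and 3435 UMIs. The MMS shares were no higher than the 2.28% of sublining-like cells, but the endothelial-like cells were shallower. Relative to all UMIs, the MMS levels of both classes were above that of sublining-like cells. Whether these levels are background was not tested, and no difference is drawn from them. The neutrophil gene S100a8 moved with these levels, at 58.0 CPM in MMS and 0.631 CPM in control macrophage or monocyte-like cells and 30.8 and 0.606 CPM in endothelial-like cells. Prg4 did too, at 212 CPM in MMS and 43.2 CPM in control macrophage or monocyte-like cells and 176 and 81.8 CPM in endothelial-like cells.

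In mural-like cells Slpi had 1050 UMIs, or 304 CPM, in MMS and 0 UMIs in control, which allows up to 1.97 CPM. These UMIs lay in 24 of 181 MMS cells, which held 55548 CPM of the lining gene Prg4, against 15237 CPM in the MMS mural-like cells without Slpi. The 9 lining markers were all detected and summed to 24907 CPM in MMS mural-like cells and 1770 CPM in control ones. When mural-like cells were split at 0.5% of UMIs from Prg4, a limit set after the values were seen, the 34 MMS cells at or above it held 1044 of the 1050 Slpi UMIs. The 147 MMS cells below it held 6, or 2.64 CPM, and the 142 control cells below it 0. Serpine2 did not follow Prg4, since below the limit it was at 901 CPM in MMS and 204 CPM in control (2.14, interval 1.97 to 2.32). Serpina3n was at 52.0 CPM in MMS and 11.2 CPM in control over all mural-like cells (2.22), and at 19.0 and 11.7 CPM below the limit, where the interval spans 0 (-0.14 to 1.60). Serpinb9 was lower in MMS on both counts, with 28.2 CPM in MMS and 57.0 CPM in control below the limit.

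**Figure D5:**
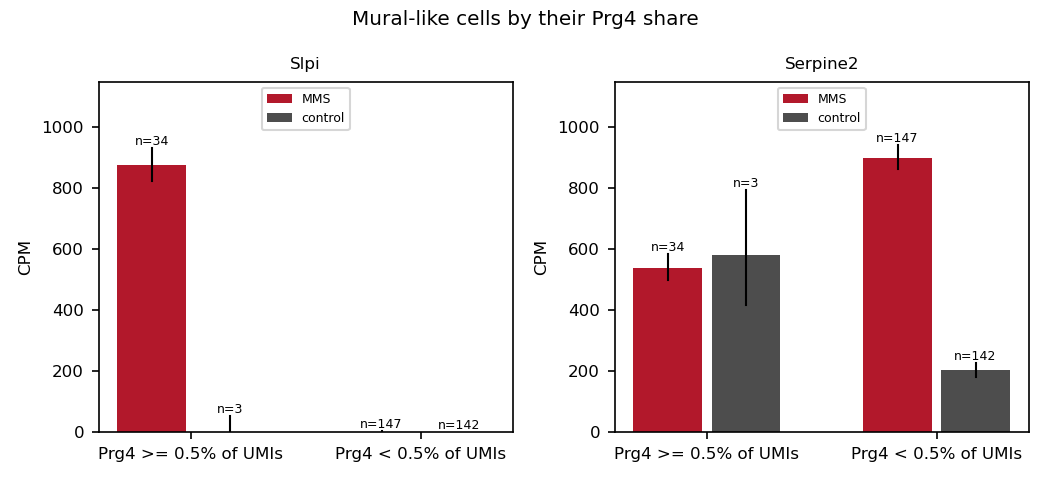
Levels of Slpi and Serpine2 in mural-like cells in CPM, split by whether Prg4 makes up at least 0.5% of a cell's UMIs, MMS beside control, with the number of cells above each bar and exact Poisson intervals. Slpi is at 878 CPM in the 34 MMS cells at or above that limit and 2.64 CPM in the 147 below it, while Serpine2 is at 540 and 901 CPM in the same cells.

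Over all kept cells 27 members were measured, of which 10 were at least 2-fold higher in MMS and 6 at least 2-fold lower, where 11.3% and 8.52% of all genes were. The libraries differed in cell makeup as given above. In the other classes 1 to 4 members lay past 2-fold in each direction. Lining-like cells had 17 members measured, of which 4 were at least 2-fold higher in MMS (Slpi, Serpina3n, Serpina3m and Serpine3) and 2 at least 2-fold lower (Serpinb7 and Serpinb1b), where 5.63% and 6.16% of all genes were. Sublining-like cells had 14 measured, with 2 higher (Serpina3n and Serpinb6c) and 2 lower (Serpinb1a and Serpinb7), against 9.26% and 5.27% of all genes. Macrophage or monocyte-like cells had 13 measured, with 2 higher (Slpi and Serpinb6b, neither with 50 UMIs there) and 1 lower (Serpinf1), against 4.85% and 5.14%. Endothelial-like cells had 13 measured, with 3 higher (Serpine2, Serpinb8 and Slpi) and 2 lower (Serpina3c and Serpinb6b), against 8.8% and 4.79%. No difference is drawn from Slpi in the macrophage or monocyte-like and endothelial-like classes, as given above. Mural-like cells had 13 measured, with 3 higher (Slpi, Serpine2 and Serpina3n) and 3 lower (Serpinb9, Serpinc1 and Serpinb6b), against 8.71% and 5.98%. The members' median log2 ratio was 0.17 in lining-like, -0.46 in sublining-like, -0.03 in macrophage or monocyte-like, -0.21 in endothelial-like and 0.32 in mural-like cells. Over all genes it was -0.07, 0.03, 0.02, 0.04 and -0.03 in the same order. These counts are small, and many of the genes in them, such as Serpina3m in lining-like cells with 42 UMIs in MMS and 1 in control, rest on few UMIs.

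The proteases and receptors that these inhibitors meet were read from a fixed list. In fibroblast-like cells 24 were measured, 9 at least 2-fold higher in MMS and 4 at least 2-fold lower, where 10.1% and 9.73% of all genes were, with a median log2 ratio of 0.47 against 0.06 over all genes. The 9 included Elane, a leading gene of neutrophil-like cluster c16, and the part of RNA from other cells was not tested. Ctsk, the collagen-cutting cathepsin, was at 909 CPM in MMS and 315 CPM in control, and Plat, tissue plasminogen activator, at 59.3 and 22.3 CPM. F2rl1, a receptor that trypsin-like proteases cleave, was at 1.61 CPM in MMS and had no control UMI. Lowest were Plau, urokinase, at 11.7 CPM in MMS and 42.5 CPM in control, the thrombin receptor Thbd at 47.6 and 154 CPM, and tissue factor F3 at 11.7 and 33.0 CPM. The plasminogen activators thus had both directions among fibroblasts, with Plat higher and Plau lower in MMS. In macrophage or monocyte-like cells 4 of 20 were higher and 2 lower, against 4.85% and 5.14% of all genes, with Ctsk at 226 CPM in MMS and 7.26 CPM in control and Mmp9 at 87.4 and 30.7 CPM. In endothelial-like cells 7 of 21 were higher and 1 lower, against 8.8% and 4.79% of all genes, with Prss23 at 119 CPM in MMS and 32.6 CPM in control and Procr, the protein C receptor, at 58.4 and 21.1 CPM.

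Of the other protease inhibitors, 5 of 21 were at least 2-fold higher and 7 at least 2-fold lower in MMS fibroblast-like cells, with a median log2 ratio of -0.72. The shares and the median over all genes in each class, given above, apply to this list and the next. Wfdc17 and Wfdc21, which like Slpi carry whey acidic protein domains, were among the highest ratios, at 8.76 and 2.02 CPM in MMS and 2.29 and 0.262 CPM in control. Wfdc21 was also among the leading genes of neutrophil-like clusters c16 and c17. Neutrophil markers summed to 73.6 CPM in MMS and 1.11 CPM in control fibroblast-like cells. The part of RNA from other cells in these low levels was not tested. Kazald1 was at 26.2 CPM in MMS and 84.1 CPM in control. In macrophage or monocyte-like cells 4 of 14 were higher and none lower, led by Wfdc17 at 2111 CPM in MMS and 1013 CPM in control. In endothelial-like cells 4 of 17 were higher and 1 lower, with Tfpi, the tissue factor pathway inhibitor, at 49.2 CPM in MMS and 19.9 CPM in control. Of the collagen-folding genes around Serpinh1, 2 of 22 were at least 2-fold higher and 1 lower in MMS fibroblast-like cells, with a median log2 ratio of 0.19. Plod2, a collagen lysyl hydroxylase, was at 278 CPM in MMS and 77.9 CPM in control, and Pcolce2, a procollagen C-proteinase enhancer, at 223 and 1124 CPM. That list had 1 of 22 higher and 2 lower in macrophage or monocyte-like cells, and 3 of 21 higher and 2 lower in endothelial-like cells.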

How the data were processed

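Each library was deposited as a matrix of UMI counts per gene and cell barcode, raw and not normalized. The authors made these counts with Cell Ranger 5.0.0, per the file headers. The version in the submitters' processing notes is 2.0.0, with mm10 as genome build. Every deposited barcode had at least 500 UMIs. Cells with at least 1000 UMIs, 500 genes and at most 10% mitochondrial UMIs were kept, and doublets called by scrublet at an assumed rate of 0.06 were removed, 106 of 3871 cells in MMS and 184 of 7075 in control. Cells were clustered in scanpy 1.11.5 on 2000 variable genes without the members, with 30 principal components, 15 neighbours and Leiden resolution 1.0, giving 29 clusters, of which 4 stayed unnamed. Clusters were named from fixed marker lists with a score limit of 1.5 set after the clusters were seen, and fibroblast-like cells were clustered again into 18 sub-clusters.

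UMIs were summed per class and library. Levels are CPM with exact Poisson intervals, shares of cells have exact Clopper-Pearson intervals, and ratios of MMS over control have exact conditional binomial intervals, all at 95% and for counting error only. A library with no UMI takes a floor of 3 counts, and no ratio is given where the other library lies under that floor. A ratio needed at least 10 UMIs over both libraries. A member is described in a class where it had at least 50 UMIs and 5% of its kept UMIs in either library, and values in other classes were added after they were seen. Of each other list, the 3 highest and 3 lowest ratios with 50 UMIs could be named. The ratio and its interval were checked on simulated counts. Members and lists were chosen with earlier results of these data known. No p-value was computed, since each group is 1 library of 20 pooled knees. Gene coordinates are from GENCODE M21 and promoters from RefSeq, both GRCm38, with 25 of 28 members matched, and protein sequences were not used here. One gene that matches the symbol rule is not reported here.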

Additional observations from a re-analysis of the deposited data

Results flagged for a closer look

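Serpinb1a differed in opposite directions between cell classes. Its log2 ratio of MMS over control was 6.66 in neutrophil-like cells, where the control library held 1 UMI in 20 cells. It was -2.46 in T or NK-like cells, with 13 UMIs in 27 MMS cells and 136 UMIs in 68 control cells, and -1.37 in sublining-like cells. The difference between the classes was not tested, because each group is 1 library.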

How the results depend on the processing

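No paired analysis was possible because each group has 1 library, and for the same reason no replicate could be left out. Of 108 alternative values of the member counts and medians, 89 stayed within 1.5 times the reported count or within the reported spread of the members, and 19 did not. With cells thinned to 2000 UMIs, 2 members were higher and 3 lower in fibroblast-like cells, against 5 and 5 as reported, and 0 were lower in endothelial-like cells. In macrophage or monocyte-like cells thinning gave 1 higher and a median log2 ratio of -0.45, against 2 and -0.03 as reported. With at least 50 UMIs required, 3 were higher in fibroblast-like cells, 0 higher in macrophage or monocyte-like cells and 1 lower in endothelial-like cells, and a 1.5-fold limit gave 8 higher in fibroblast-like cells. In macrophage or monocyte-like cells, a mitochondrial limit of 5%, which left 176 MMS and 632 control cells, gave 5 higher, 0 lower and a median log2 ratio of 0.84. A limit of 20%, keeping called doublets, and a cluster resolution of 0.5 each gave 2 lower there, and the 20% limit gave 1 higher. In endothelial-like cells, 4 were lower with a 1.5-fold limit and 4 with called doublets kept, and 1 with a minimum of 2000 UMIs.

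Of 21 described log2 ratios past 2-fold, 17 kept their sign in every setting run and 4 did not. Serpinb6b in fibroblast-like cells was at -1.07 without cluster c0, which held 567 of the MMS cells, and Serpinb6b in endothelial-like cells at 0.018 after thinning. Serpinb1a in sublining-like cells was at 0.63 within cluster c13, and Serpinf1 in macrophage or monocyte-like cells at 2.89 with the 5% limit. The refits were not run on lining-like and sublining-like cells. Lining-like ratios had 2 settings, the reported one and cluster c10. That cluster held 500 MMS and 246 control cells against 491 and 238 lining-like ones, so a sign could hardly change. Sublining-like ratios had 2 or 3 settings. Among ratios under 2-fold, Serpinh1 in macrophage or monocyte-like cells was at 1.25 with the 5% limit, and Serpina3m in sublining-like cells at -1.34 within cluster c1. The cause was not tested. Slpi in fibroblast-like cells ranged from 4.34 to 5.38 and Serpina3n in fibroblast-like cells from -1.22 to -0.39. Counting unnamed fibroblast clusters with the class, and the split of mural-like cells by Prg4, were chosen after seeing the data. Depth limits the members under 100 UMIs, whose ratios rest on few molecules.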

Other observations

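Some members were high in cells found in the MMS library alone or nearly so. The unnamed cluster c6, whose 194 cells all came from the MMS library, held Serpinf1 at 1481 CPM, Serpine2 at 1138 CPM, Serpinh1 at 1100 CPM, Serpina3n at 84.0 CPM and Slpi at 44.4 CPM. Slpi had a UMI in 23 of these 194 cells and Serpinf1 in 193 of them. The MMS sub-cluster s5 of 23 cells, led by Rgs2 and Mmp13 and without a control cell, held Serpine2 at 4775 CPM and no Slpi UMI.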
